A study of Equus caballus with 13 samples.

Results

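The genes described here were 10 genes of autophagy and of its control: the transcription factors FOXO1 and FOXO3, and the autophagy genes ULK1, BECN1, ATG3, ATG5, ATG7, ATG12, MAP1LC3B and SQSTM1. They were chosen by name from both deposited tables of RNA kinetics, and 9 of the 10 were listed in each, among 11056 genes in the table of old against young cells and 11249 in the table of male against female cells. MAP1LC3B was listed in neither under its symbol and has no value here. The cells were wild-type horse (Equus caballus) chondrocytes, the cells that make and maintain cartilage, cultured for 2 days. The uridine analogue 4-thiouridine (4sU) was present for the last 4 h. It is built into new RNA and lets it be told from older RNA. The groups were 5 old female, 5 young female and 3 young male samples, and every sample carried the label. The young female samples served both comparisons, age within females and sex within young animals, so the comparisons share their reference.

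Each table gave, for every gene and group, 1 synthesis rate and 1 half-life estimated by the authors. With 1 value a group and no values per sample, the sequencing depth and the spread between animals are unknown, no SD, interval or test could be given, and all differences below are described by size. Half-lives were read as hours. Synthesis rates had no stated unit, and whether they were scaled by transcript length is unknown, so the rates of single genes are compared between groups and not with those of other genes; sums of implied levels over marker lists, the filter on low synthesis rates and the likeness of genes to FOXO1 and FOXO3 do combine genes and carry this limit. An implied level, the synthesis rate divided by the decay rate, was computed from both parameters and holds if RNA levels stayed constant while cells were labelled. The threshold for counting a gene was an absolute log2 ratio of at least 1, which is a 2-fold difference.

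Autophagy delivers cytoplasm and damaged organelles to the lysosome inside a double membrane, the autophagosome. The ULK1 kinase complex starts the process, a lipid kinase complex built around Beclin 1 (BECN1) marks the membrane, and a ubiquitin-like conjugation system attaches LC3-family proteins to it so that the membrane can grow and take up cargo. FOXO1 and FOXO3 are transcription factors held back by insulin and AKT signalling, and autophagy genes are among the genes they activate. In cartilage, FOXO factors and autophagy are known for their part in keeping chondrocytes alive, and both have been studied in ageing and osteoarthritis.

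The labelled cell type was checked on its markers. All 14 chondrocyte markers were listed in both tables, and so were all 5 fibroblast markers. CD68, CD163, PTPRC and CSF1R of the macrophage list and PECAM1, CDH5 and KDR of the endothelial list were listed in neither table. The remaining gene of each list was in both tables: CD14, of the macrophage list, had log2 level ratios of 0.26 (old) and 0.15 (male), and VWF, of the endothelial list, 0.26 and 0.04. The summed implied level of the chondrocyte markers had a log2 ratio of −0.14 for old cells and 1.34 for male cells, with 0 of 14 past the threshold upward and 2 downward in old cells and 10 upward and 0 downward in male cells. The summed level of the fibroblast markers had log2 ratios of −1.09 and 1.30, with 3 of 5 lower in old cells by at least 2-fold and 4 of 5 higher in male cells by as much. Of 5 osteoblast markers 3 were listed, and their summed level had log2 ratios of 0.25 and 2.38, with 0 of 3 past the threshold in old cells and 2 upward in male cells. Of all genes, 2.13% had a level past it upward and 1.99% downward in old cells, and 3.00% upward and 1.61% downward in male cells. The part of these differences in the values below was not tested. The labels spread the 13 samples over 12 batches. Batch 10, with a young female and a young male sample, was the only one shared by groups, so batch and group cannot be told apart.

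The FOXO messages were the shortest-lived of the 9 genes, and the conjugation and nucleation genes spanned the longest half-lives. In young female cells of the age table the half-life was 0.800 h for FOXO3 and 0.923 h for FOXO1, shorter than in all but 2.31% and 4.19% of genes. SQSTM1, which encodes the cargo receptor p62, had a half-life of 1.80 h, and ULK1 one of 2.12 h. ATG5 (2.30 h) and ATG12 (3.15 h) encode the proteins that are joined into the conjugate that directs LC3 lipidation. BECN1 had a half-life of 5.97 h and ATG3, the E2-like enzyme of LC3, one of 8.26 h. ATG7, the E1-like enzyme that activates both ATG12 and the LC3 family, had the longest, 14.1 h, longer than in 85.4% of genes. The range over the 9 genes was 17.6-fold, and their median of 2.30 h stood beside 3.64 h over all genes.

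This order was the same in every group except for 1 pair of neighbours. FOXO3, FOXO1, SQSTM1, ULK1, ATG5, ATG12, BECN1, ATG3 and ATG7 followed each other from short to long in young female cells of both tables and in old female cells. In young male cells ULK1 (1.79 h) preceded SQSTM1 (1.87 h). The genes BECN1, ATG3 and ATG7 lay above the median of all genes in each group and the other 6 below it. Whether neighbours in this order differed beyond the spread between animals could not be examined.

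**Figure D1:**
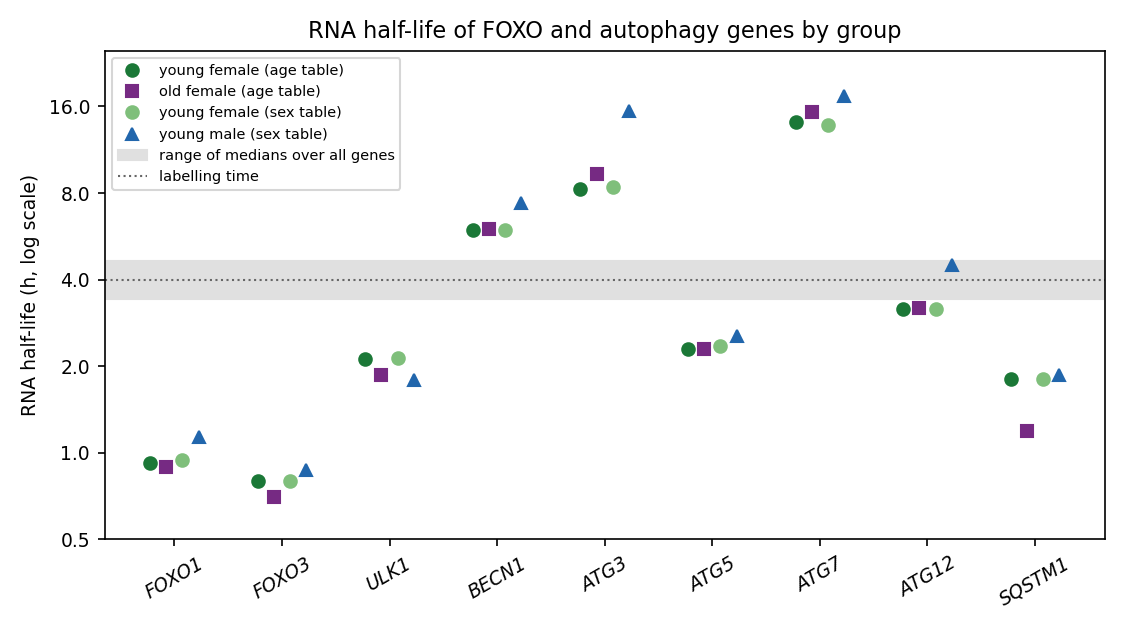
RNA half-life in hours (log scale) of the 9 listed genes, with 1 point for each group value of the age and sex tables; the grey band spans the medians over all genes in the 4 columns, 3.43 to 4.63 h, and the dotted line is the labelling time. FOXO1 and FOXO3 lie near 1 h and ATG7 near 15 h in every group, the old female value stands apart for SQSTM1, and the male value stands apart for ATG3.

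The half-life sets how much of a message was made during labelling. At the listed half-lives, 96.9% of FOXO3 RNA and 95.05% of FOXO1 RNA in young female cells of the age table would have been made within 4 h, against 17.8% of ATG7 RNA. A FOXO1 half-life of 0.923 or 0.894 h, the young and old female values, therefore corresponds to new shares of 95.05% and 95.5%. For ATG7, half-lives of 14.1 and 15.3 h correspond to 17.8% and 16.5%.

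The young female samples entered both tables, which gives a repeat estimate from the same samples, without variation between animals. Between tables the half-lives of the 9 genes differed by log2 ratios of −0.04 (ATG7) to 0.03 (FOXO1). The largest deviation from the median of all shared genes was 0.036 for half-life and 0.036 for synthesis rate, both for ATG7, beside a 95th percentile of 0.183 over all genes for each. Implied levels of all 9 genes were lower in the sex table by a factor of 0.955, and each lay within 0.00038 log2 units of the median offset. The whole table was less uniform, with a 95th percentile of 0.00092. For the 9 genes a deviation in half-life was thus mirrored by one in synthesis rate between these 2 estimates. No repeat estimate of the old female or young male values was at hand, so whether theirs behave alike was not tested.

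The comparison of old with young female cells asked how age affects RNA kinetics. None of the 9 genes was past the 2-fold threshold for half-life, synthesis rate or implied level, where 3.53%, 7.52% and 4.12% of all genes were. The genes with the largest ratios were ULK1 and SQSTM1, both with higher synthesis rates in old cells, while FOXO1, BECN1 and ATG12 had absolute log2 ratios under 0.1 in all 3 quantities. Over the 9 genes the half-life ratios had a median of 0.00 on the log2 scale, the synthesis ratios one of 0.08 and the level ratios one of 0.06, beside −0.08, 0.08 and 0.00 over all genes.

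SQSTM1 had a shorter half-life and a higher synthesis rate in old cells, with little difference in level. Its half-life was 1.80 h in young and 1.19 h in old female cells, a log2 ratio of −0.60 that was lower than in all but 6.03% of genes. Its synthesis rate was 5038 in young and 8063 in old cells, a 1.60-fold difference higher than in 90.8% of genes. The implied level was 13113 and 13882, a log2 ratio of 0.08. Among the 1097 genes in its decile of half-life, all but 3.46% had a higher half-life ratio.

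ULK1 was the member with the largest ratio of implied level in old cells. Its synthesis rate was 983 in young and 1693 in old female cells, 1.72-fold higher, and its half-life was 2.12 and 1.87 h. The implied level was 3004 in young and 4562 in old cells, a log2 ratio of 0.60 that was higher than in 94.2% of genes. At an absolute log2 ratio of at least 0.5, SQSTM1 was counted as shorter-lived (8.88% of all genes were), ULK1 and SQSTM1 as higher in synthesis rate (14.8%) and ULK1 as higher in level (8.19%).

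FOXO1 had log2 ratios under 0.1 in size in old cells, and FOXO3 had a shorter half-life and a higher synthesis rate at an almost equal level. The half-life of FOXO1 was 0.923 and 0.894 h in young and old cells and its synthesis rate 1118 and 1178, with a log2 level ratio of 0.03. FOXO3 had half-lives of 0.800 and 0.699 h, a log2 ratio of −0.19. As listed this ratio was the second in size among the 9 genes after that of SQSTM1. Relative to the median of all genes it was −0.11, behind ATG3 (0.26) and ATG7 (0.21). Within its half-life decile it was −0.06. The synthesis rates of FOXO3 were 18224 and 20762, a ratio of 0.19 that became −0.01 within that decile. The log2 level ratio of FOXO3 was −0.01. The signs of the FOXO1 ratios depended on the scale: relative to the median of all genes the FOXO1 half-life ratio was 0.04 and its synthesis ratio −0.01.

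Among the conjugation genes and BECN1, the largest level ratio in old cells was that of ATG3. Its half-life was 8.26 h in young and 9.32 h in old female cells and its synthesis rate 208 and 220, with a log2 level ratio of 0.25. ATG5, at 2.30 h in both groups, had synthesis rates of 316 and 274 and a log2 level ratio of −0.20. ATG7 had half-lives of 14.1 and 15.3 h, synthesis rates of 55.8 and 45.9 and a log2 level ratio of −0.16. BECN1 (345.7 and 364.9) and ATG12 (418.1 and 432.1) had close synthesis rates in young and old cells, with half-lives of 5.97 and 5.98 h for BECN1 and 3.15 and 3.18 h for ATG12.

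**Figure D2:**
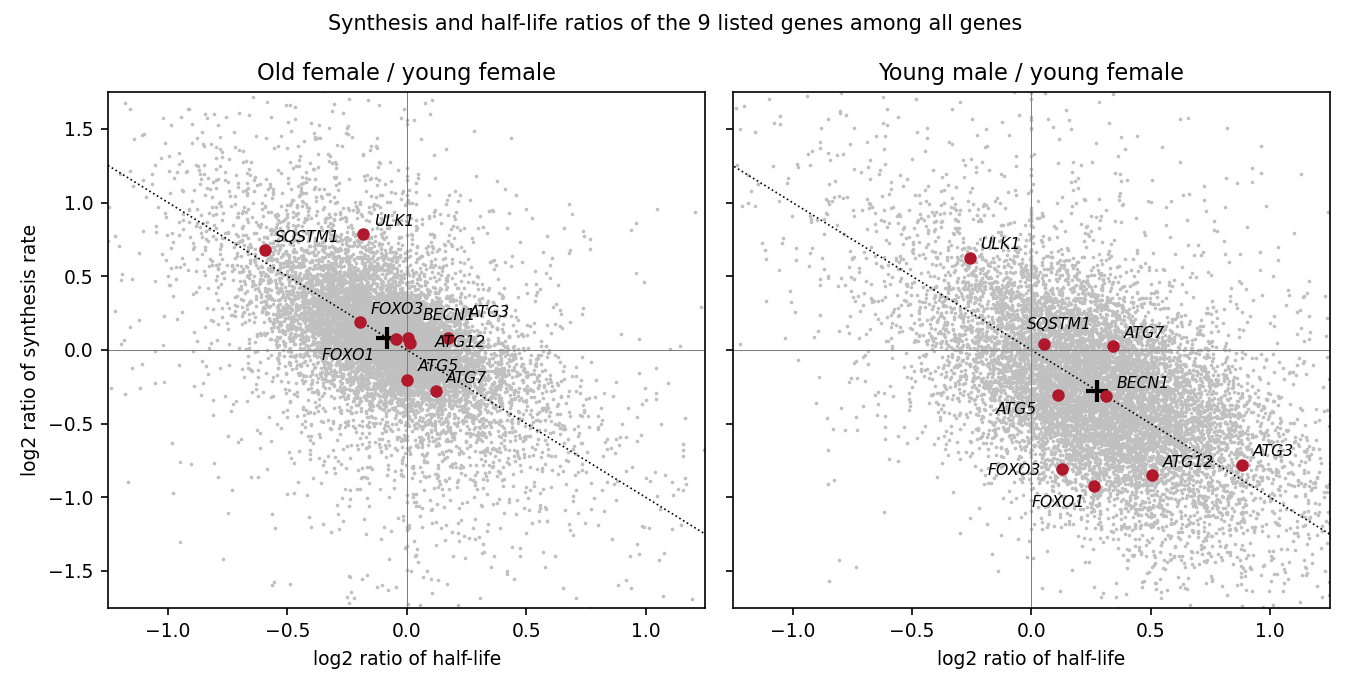
Log2 ratio of synthesis rate against log2 ratio of half-life for the 9 listed genes (red) and all other genes within the axes (grey), old over young female on the left and young male over young female on the right; the cross is the median of all genes and genes on the dotted line have an equal implied level in both groups. In old cells SQSTM1 lies close to that line and ULK1 above it, and in male cells FOXO1 and FOXO3 lie below it while ATG3 lies near it.

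The comparison of young male with young female cells asked how sex affects RNA kinetics. Over all genes, half-lives in male cells were shifted by a log2 ratio of 0.27 and synthesis rates by −0.28, and ratios are therefore given as listed and relative to that shift. None of the 9 genes was past the 2-fold threshold for half-life, synthesis rate or implied level, where 7.58%, 12.2% and 4.61% of all genes were (5.70%, 9.87% and 4.62% relative to the shift). The medians over the 9 genes were 0.26 for the half-life ratio, −0.31 for the synthesis ratio and 0.00 for the level ratio, all log2, beside 0.27, −0.28 and 0.01 over all genes. ULK1 had a higher synthesis rate in male cells and FOXO1, FOXO3, ATG3 and ATG12 lower ones, both as listed and relative to the shift, each with an absolute log2 ratio of at least 0.5. Of all genes, 8.96% were that much higher and 32.1% that much lower as listed, and 17.4% and 15.5% relative to the shift. For half-life, ATG3 and ATG12 were longer by that much as listed (27.4% of all genes). Relative to the shift ATG3 was longer (11.1%) and ULK1 shorter (9.85%). Within their half-life deciles both half-life ratios were under 0.5 in size, at 0.498 for ATG3 and −0.40 for ULK1. For level, FOXO1 and FOXO3 were lower by that much on both scales (12.0% and 12.3%).

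FOXO1 and FOXO3 had lower synthesis rates and lower implied levels in male cells. The synthesis rate of FOXO1 was 1046 in female and 552 in male cells, a log2 ratio of −0.92 that was lower than in all but 10.0% of genes. After the shift was subtracted it was −0.64. With the young female value of the age table it was −1.02, past the 2-fold threshold. That value includes an offset between the tables. Over all shared genes, young female synthesis rates were lower in the sex table by a median log2 ratio of −0.066. FOXO3 had synthesis rates of 17451 and 9974, with a ratio of −0.81 (log2), and of −0.53 after subtraction of the shift. Half-lives were 0.942 and 1.13 h for FOXO1 and 0.798 and 0.873 h for FOXO3. These ratios of 0.26 and 0.13 became −0.01 and −0.14 relative to the shift. Within their half-life decile they were 0.28 and 0.14.

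The implied level of FOXO1 was 1421 in female and 901 in male cells, 1.58-fold lower, and that of FOXO3 was 20083 and 12559, 1.60-fold lower. The log2 ratios, −0.66 and −0.68, were lower than in all but 6.50% and 6.01% of genes. Levels of other short-lived messages were also lower in male cells: in the decile of genes with the shortest half-lives in old female cells, which held both FOXO genes, the median log2 level ratio was −0.35. Relative to their decile the ratios were −0.31 for FOXO1 and −0.33 for FOXO3, and 17.3% and 15.8% of its 1098 genes had lower ones.

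As listed, ULK1 was the one member of the 9 with a shorter half-life in male than in female cells. Its half-life was 2.13 h in female and 1.79 h in male cells, and all but 8.91% of genes had a higher ratio. On the log2 scale it was −0.26 as listed, −0.53 with the shift subtracted and −0.40 within its half-life decile. Its synthesis rate was 932 in female and 1437 in male cells, 1.54-fold higher, and its log2 ratio was 0.63 as listed and 0.90 with the shift subtracted. Within its half-life decile the synthesis ratio was 1.01, past the 2-fold threshold. The implied level was 2869 and 3705, 1.29-fold higher. The old and male ratios of ULK1 share the young female samples as their reference.

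ATG3 had the largest half-life ratio of the 9 genes in the sex comparison. Its half-life was 8.38 h in female and 15.5 h in male cells, a ratio above that of 92.5% of genes. On the log2 scale it was 0.88 as listed, 0.61 with the shift subtracted and 0.498 within its half-life decile. Its synthesis rate was 195.5 and 113.9, 1.72-fold lower, so that the implied level differed by a log2 ratio of 0.10, or −0.09 within its half-life decile. At these half-lives 28.2% of ATG3 RNA in female and 16.4% in male cells would have been made during labelling.

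ATG12 had a half-life of 3.17 h in female and 4.50 h in male cells, with synthesis rates of 396 and 220. Its half-life ratio was 0.51, or 0.23 relative to the shift, and its synthesis ratio −0.85, or −0.57. The implied level was 1813 in female and 1430 in male cells, a log2 ratio of −0.34. ATG5, the partner of ATG12 in the conjugate, had half-lives of 2.35 and 2.54 h, synthesis rates of 295 and 238 and a log2 level ratio of −0.20. Within its half-life decile the synthesis ratio of ATG5 was 0.10, against −0.31 as listed.

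BECN1, ATG7 and SQSTM1 had synthesis ratios under 0.5 in size on both scales, as did ATG5. BECN1 had half-lives of 5.95 h in female and 7.38 h in male cells and synthesis rates of 331 and 266, each within 0.04 log2 units of the shift, and a level ratio of 0.00. ATG7 had half-lives of 13.7 and 17.4 h and synthesis rates of 54.7 and 55.7, a ratio 0.31 above the shift, with a log2 level ratio of 0.37, or 0.08 within its half-life decile. SQSTM1 had half-lives of 1.80 and 1.87 h and synthesis rates of 4819 and 4960, a ratio 0.32 above the shift, with a log2 level ratio of 0.09, or 0.40 within its decile.

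**Figure D3:**
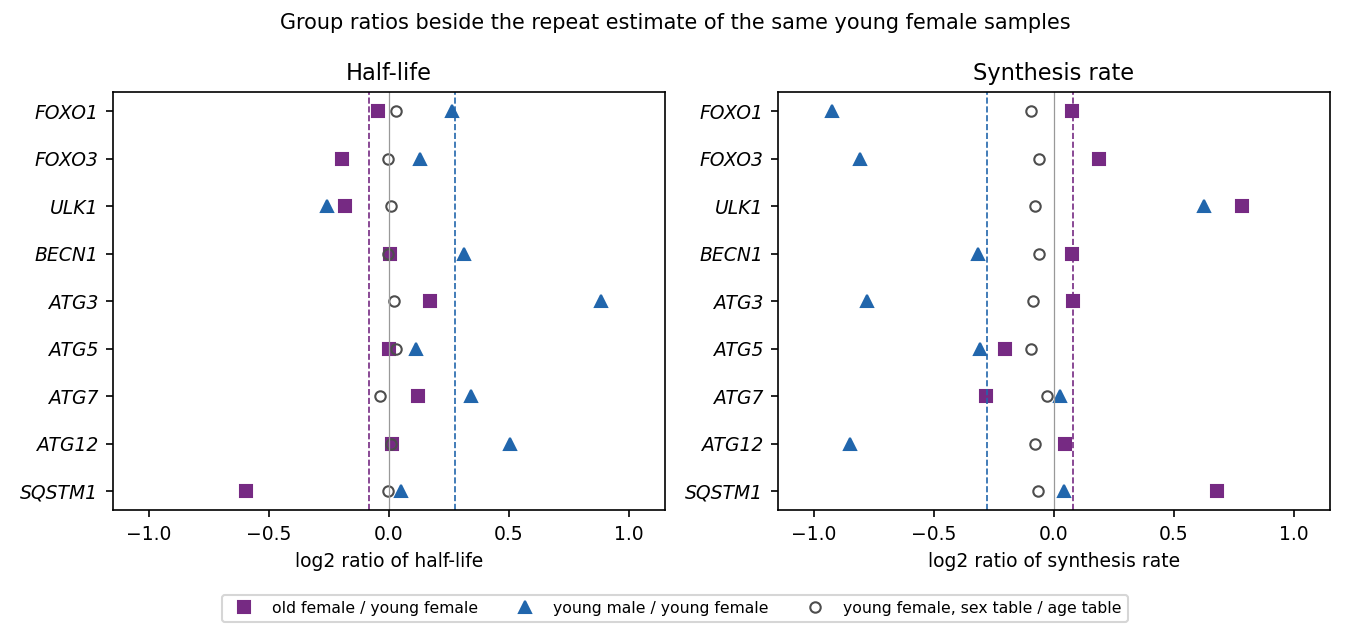
Log2 ratios of half-life (left) and synthesis rate (right) of the 9 listed genes, for old over young female (squares), young male over young female (triangles) and the repeat estimate of the same young female samples in the 2 tables (open circles); dashed lines are the medians of all genes in each comparison. The repeat estimates lie between −0.04 and 0.03 for half-life and between −0.10 and −0.03 for synthesis rate, and hold no variation between animals. The half-life ratio of SQSTM1 in old cells lies at −0.60 and that of ATG3 in male cells at 0.88.

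Synthesis rate and half-life had ratios of opposite sign for 6 of the 9 genes in the age comparison and for 7 of 9 in the sex comparison. Over all genes the shares were 70.4% and 76.2%. Relative to the median of all genes the counts were 9 of 9 and 5 of 9, beside 68.7% and 68.0%. The 9 of 9 rests in part on synthesis ratios close to 0, at −0.0051 for FOXO1, −0.0026 for BECN1 and −0.0009 for ATG3. Each was smaller than the deviation of that gene between the 2 young female estimates (0.031, 0.004 and 0.022), so these signs are not settled. The 4 genes with the same sign in the sex comparison on that scale were FOXO1, FOXO3, ATG5 and ATG7. Deviations of opposite sign also arose between the 2 estimates from the same young female samples, where no group differed. The part of estimation in these counts was not tested.

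The other genes of autophagy came from 6 lists with 72 genes, of which 66 were listed in the age table and 67 in the sex table; FOXO targets and other FOXO genes formed lists of their own. In old cells the 2-fold threshold was passed by 1 of the 66 in half-life (1.52%), by 1 in synthesis rate (1.52%) and by 0 in level, beside 3.53%, 7.52% and 4.12% of all genes. Both calls belonged to ZKSCAN3, a zinc finger gene of the upstream list. They rest on its young female half-life of 0.0326 h in the age table. With the young female values of the sex table, estimated from the same samples, its log2 half-life ratio of 4.88 became 0.10 and its synthesis ratio of −4.94 became −0.12, so that neither was past the threshold.

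In male cells it was passed by 2 of the 67 in half-life, both longer (2.99%), by 5 in synthesis rate, all lower (7.46%), and by 1 in level (1.49%), where the whole table had 7.58%, 12.2% and 4.61%. ATG4C and ATG9B were the longer-lived ones, and PIK3R4, ATG9B, ATG4C, MITF and ZKSCAN3 those with the lower synthesis rates; PIK3R4 and ATG9B are named after their values were seen. Relative to the shift of all genes, the synthesis ratios of ATG4C and MITF were still past the threshold, at −1.03 and −1.14. For half-life ATG9B was still past it, at 1.44, and ATG4C was not. The median log2 level ratio of the autophagy lists was −0.02 by age and −0.06 by sex, beside 0.00 and 0.01 over all genes. Within half-life deciles the median by sex was 0.01, with 35 of 66 genes above 0 and 31 below.

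The initiation list held the partners of ULK1 and BECN1, such as ATG13, RB1CC1, PIK3C3 and ATG14. In old cells their median log2 level ratio was 0.03, with 6 of 10 above 0. In male cells it was −0.16, with 9 of 10 below 0 beside 49.5% of all genes, and within half-life deciles it was 0.01, with 5 of 10 below 0. The conjugation list had medians of 0.06 and 0.18 over 9 listed genes. One of them, ATG4C, which encodes a protease that processes LC3-family proteins, had a half-life of 4.72 h in young female cells and of 11.1 h in male cells. The log2 ratio was 1.24, and 0.96 after the shift was subtracted. Its synthesis rate was 136 and 54.8, so that its level ratio was −0.07. ATG3 also paired a longer half-life with a lower synthesis rate. Such pairs are not particular to these genes, since 76.2% of all genes had ratios of opposite sign by sex as listed.

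The cargo receptor list, to which SQSTM1 is related by function, had median level ratios (log2) of 0.08 for old and −0.06 for male cells over 13 genes. None of the 13 was past the threshold in any quantity of either comparison, and with 3.53% to 12.2% of all genes past it, a count of 0 in a list this short is near the background. Genes of autophagosome fusion had medians of −0.07 and 0.08 over 7 genes, and here too 0 were past it. Genes of membrane supply, with 9 listed for age and 10 for sex, had medians of −0.09 and 0.04. Of 18 upstream regulators, 2 were past the threshold for synthesis rate in male cells, both lower, which is 11.1% beside 12.2% of all genes. MITF, a transcription factor related to TFEB, had synthesis rates of 435 in female and 162 in male cells and a log2 level ratio of −1.02, or −0.79 within its half-life decile. ZKSCAN3 was named after its values were seen because its female half-life was under 1 h. It had a log2 synthesis ratio of −1.01 and a level ratio of −0.14. Relative to the shift the synthesis ratio was −0.73, no longer past the threshold. With the young female values of the age table, including the half-life of 0.0326 h, it was −5.83. The half-life ratio, 0.87 as listed, was 5.65 with them.

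**Figure D4:**
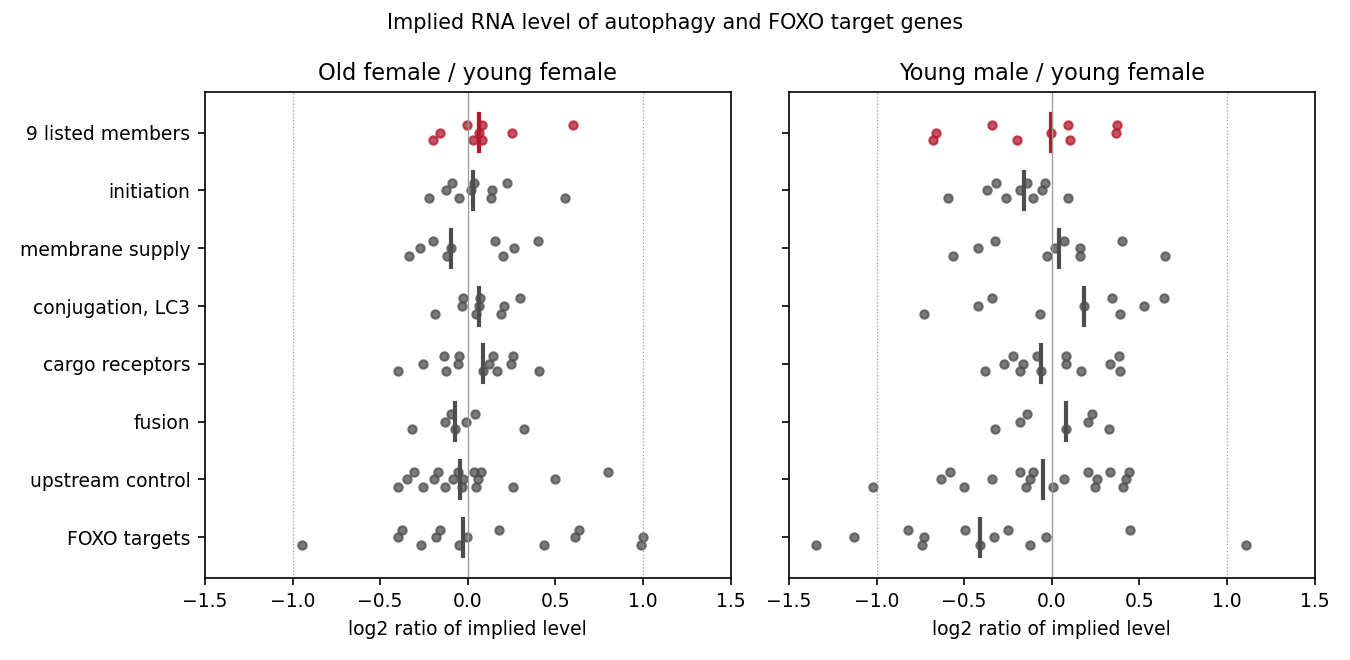
Log2 ratio of implied level for the 9 listed members (red) and for the other autophagy and FOXO target genes by list (grey), old over young female on the left and young male over young female on the right; each point is 1 gene, vertical bars are medians and dotted lines mark a 2-fold difference. FOXO targets have the lowest list median in male cells, −0.41, and a spread in old cells from −0.94 to 1.00.

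Genes known as FOXO targets had no common direction in old cells, with 6 of 14 above 0 in level and a median log2 ratio of −0.03. KLHL24 and CCNG2 were past the threshold for synthesis rate, which is 14.3% of 14 beside 7.52% of all genes. Relative to the median of all genes, 1 of the 14 was still past it, KLHL24, beside 810 of 11056 genes. Among the 14 listed FOXO targets KLHL24 had the highest synthesis ratio in old cells. Its rates were 569 in young and 1433 in old female cells, 2.52-fold higher, and its level ratio of 1.00 was just under the threshold. CCNG2, a cyclin-related gene linked to cell cycle exit, had synthesis rates of 590 and 1243, a log2 ratio of 1.08, or 0.99 relative to the median of all genes, and a half-life of 1.58 and 1.01 h. Its level ratio was 0.44.

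In male cells 11 of 13 FOXO targets had level ratios below 0, beside 49.5% of all genes, and their median log2 ratio was −0.41. Set against their half-life deciles they had a median of −0.14, with 8 of 13 below 0. Any link to the levels of FOXO1 and FOXO3 was not tested. Of the 13, 4 were past the threshold for synthesis rate (1 higher, 3 lower) and 3 for level (1 higher, 2 lower). These are 30.8% and 23.1%, beside 12.2% and 4.61% of all genes. Within half-life deciles the level ratio of BCL2L11 was still past the threshold, at −1.04. Those of CAT (0.68) and GADD45A (−0.78) were not. Relative to the shift the count for synthesis rate was 3, with 2 higher (TXNIP and CAT) and 1 lower (BCL2L11). The 1 gene higher as listed was TXNIP, named here after its values were seen. Its synthesis ratio of 3.49 rests on a half-life of 0.0304 h in male cells, against 0.568 h in female cells. BCL2L11, which encodes the pro-apoptotic protein BIM, had synthesis rates of 123 in female and 40.5 in male cells and a log2 level ratio of −1.35. GADD45A, a stress-response gene, had implied levels of 5870 and 2689, a log2 ratio of −1.13, or −0.78 within its half-life decile, with half-lives of 1.13 and 1.16 h. FOXO4, the other FOXO gene listed, had half-lives of 6.69 and 6.53 h in this table and a log2 level ratio of −0.11.

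The genes most like FOXO1 over 6 log2 values (half-life and synthesis rate in old female, young female and young male cells, as distances among all genes in both tables) were SNRK, BRD8 and TSTD2, at distances of 0.27, 0.30 and 0.30. SNRK had half-lives of 0.859, 0.791 and 1.01 h in young female, old female and young male cells. FOXO3 had more distant neighbours, DLC1, PTGS2 and ZFP36L1, at 0.88, 0.89 and 1.00. DLC1 had half-lives of 0.731, 0.817 and 0.891 h in the same groups. This likeness includes the synthesis rate, whose scaling by length is unknown.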

How the data were processed

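RNA kinetics were estimated from 4sU-labelled chondrocytes of 13 samples. Per the labels' protocols, RNA was alkylated with iodoacetamide and libraries were strand-specific after poly(A) selection. Per the submitters' processing notes, the tools included cutadapt 4.5 and STAR 2.5.3 and the build was EquCab3.0. The authors deposited 2 tables with 1 synthesis rate and 1 half-life per gene and group; the kinetic model, annotation, gene filter and way of combining replicates were not given in the sources used here, and neither was a unit. Half-lives were read as hours, which is an assumption. Every column stopped at 69.3, a decay rate of 0.01 per unit of time, and this does not fix the unit. The deposited column headed "Young" was read as young female, from the labels.

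From these values, log2 ratios against the young female group of the same table were computed for every gene (Python 3.11.15, pandas 2.3.3, numpy 2.4.6), with no pseudocount or filter, and checked on simulated data. Depth is unknown and no test was possible. Deciles were of the half-life of the group outside the ratio (young male for age, old female for sex). Members and gene lists were chosen with earlier results of these data known. All members were named, with up to 3 listed pathway or FOXO genes per direction, quantity and comparison past the threshold, if both group half-lives lay within 1 to 24 h. The alternatives were a threshold of 0.5, centring on all genes or within deciles, young female values from the other table, both half-lives within 1 to 24 h and the upper 75% by synthesis rate. Gene symbols were used as deposited; 716 and 734 rows of the age and sex tables carried an Ensembl ID in place of a symbol and were not assigned.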

Additional observations from a re-analysis of the deposited data

How the results depend on the processing

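With no values per replicate, fixed limits were used to say that a value moved. They were 1.5 times for a count, 0.05 log2 units for a median and 0.1 for the ratio of a single gene. No paired analysis was possible because the tables held group values and no column carried a replicate letter; leaving out a replicate was not possible for the same reason. The cause of the changes was not tested, except that fewer genes enter under a filter and that centring subtracts a fixed shift. A further known part is the offset between tables, which enters when the reference is exchanged. Young female levels in the sex table had a median log2 ratio of −0.067 to those in the age table over all shared genes. For synthesis rates this median was −0.066.

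At a threshold of 0.5 the members counted in the age comparison were 1 for half-life, 2 for synthesis and 1 for level, and in the sex comparison 2, 5 and 2. Centring together with that threshold, an alternative added after seeing the data, gave the same 6 counts. The genes behind the half-life count by sex changed, however. They were ATG3 and ATG12, both longer, as listed, and ATG3, longer, and ULK1, shorter, after centring. The other pathway and FOXO genes, FOXO targets included, counted at 0.5 numbered 6, 14 and 7 for age and, for sex, 17, 26 and 15, which are 7.41%, 17.3% and 8.64% and then 21.0%, 32.1% and 18.5% of those listed, beside 13.4%, 23.0% and 15.6% and then 31.8%, 41.1% and 24.98% of all genes; at the threshold of 1, the count for synthesis rate by sex was 5 after centring, 4 of the 9 counted as listed and CAT. The members past the threshold for synthesis rate by sex became 1 within half-life deciles (ULK1, higher) and 1 with the other table's young female values (FOXO1, lower).

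In the age comparison the members' median half-life ratio was 0.087 after centring on all genes and 0.094 within deciles. Their median synthesis ratio was −0.0026 and −0.0058 under these, and 0.17 with the other table's young female values, under which the median level ratio was 0.13. In the sex comparison the median half-life ratio was −0.0097 after centring, −0.024 within deciles and 0.20 in the upper 75% by synthesis rate, which removed ATG7. The median synthesis ratio was −0.036, −0.053 and −0.55 under these and −0.41 with the other table's values. The median level ratio was −0.085 within deciles, −0.070 with the other table's values, 0.093 within 1 to 24 h, which removed FOXO1 and FOXO3, and −0.10 in the upper 75%. Of 162 ratios of single members under the centred, decile and other-table alternatives, 117 stayed within 0.1 and 45 moved further. By age the sign turned in 5 of 27 ratios after centring on all genes, 5 within deciles and 2 with the other table's values. By sex these counts were 4, 6 and 2. All of these ratios were under the threshold, since no member was past it as listed.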

Other observations

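Some pathway genes outside the naming rule are given here as values, chosen after their values were seen. ATG14, a subunit of the Beclin 1 lipid kinase complex, had synthesis rates of 365 in young and 679 in old female cells, with half-lives of 1.10 and 0.872 h and a log2 level ratio of 0.56. TFEB, a transcription factor of lysosomal and autophagy genes, had synthesis rates of 533 and 789 in the same groups and a log2 level ratio of 0.50. GABARAPL1, an LC3-family gene, had a log2 synthesis ratio of 0.46 in old and −0.88 in male cells, each against young female cells. CAT, which encodes the antioxidant enzyme catalase, had a log2 level ratio of 0.99 for old cells and of 1.11 for male cells. Its half-lives were 28.3 h or more in every group, beyond the range of 1 to 24 h.

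For 2 messages, 1 listed half-life was far shorter than the others of the same gene. ZKSCAN3, a zinc finger gene of the upstream list, had a half-life of 0.0326 h in young female cells of the age table and 0.897 h in the same samples of the sex table, so its log2 half-life ratio of 4.88 in old cells rests on 1 of 2 unequal estimates. TXNIP, a FOXO target, had a half-life of 0.568 h in female and 0.0304 h in male cells with synthesis rates of 17103 and 191543, and its log2 level ratio was −0.74.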
